A study of Mus musculus with 12 samples.

Results

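Angiopoietin, Tie and tip cell genes were followed across 12 arrays of lung tumour tissue, as 8 genes of the 19937 measured. They are Tek, Tie1, Angpt1, Angpt2, Angptl4, Esm1, Apln and Dll4, taken by symbol from the platform annotation, and each had 1 probe set that named no other gene. All 8 passed an intensity floor of log2 6 in at least 3 arrays.

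Tek, also called Tie2, and Tie1 are receptor tyrosine kinases of endothelial cells. Angpt1, made largely by the mural cells around vessels, activates Tek and keeps the vessel wall quiet and tight, whereas Angpt2, made by activated endothelium, mostly competes with Angpt1 and loosens vessels before they sprout. Angptl4 is an angiopoietin-like protein that does not bind Tie receptors but inhibits lipoprotein lipase. Esm1, Apln and Dll4 mark the tip cells that lead a growing sprout: Esm1 is a secreted proteoglycan, Apln a peptide hormone and Dll4 a Notch ligand that holds the neighbouring cells back.

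The tissue was Lewis lung carcinoma, a transplantable mouse tumour line, recovered from lungs of C57BL/6 females, so RNA of host lung can be part of it. The groups were RelA/p65 deficient hosts exposed to smoke, RelA/p65 deficient hosts exposed to air, wild type hosts exposed to smoke and wild type hosts exposed to air, with 3 arrays each. The series title speaks of RelA/p65, one of the NF-kB transcription factors, in myeloid cells, but the labels give no promoter or Cre line for the deletion, no smoke dose and no time. Nothing in them ties the replicates to separate animals, and the p-values below thus cover the spread between these arrays alone, which could be technical.

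Rela, the gene meant to be missing, did not measure lower where hosts were labelled RelA/p65 deficient. It measured 9.30, 9.37 and 9.27 in deficient smoke and 9.45, 9.44 and 9.38 in deficient air, against 9.04, 9.01 and 9.19 in wild type smoke and 9.25, 9.16 and 9.26 in wild type air, on the authors' deposited log2 scale. Deficient arrays were higher by 0.23 in smoke (limma adjusted p = 0.00873) and by 0.20 in air (adjusted p = 0.0285), and with each array centred on its median neither difference passed the test (0.09, adjusted p = 0.213, and 0.12, adjusted p = 0.142). In air, the call was likewise lost on leaving out deficient air replicate 1, deficient air replicate 2 or wild type air replicate 2 alone. The labels do not say which part of the gene was removed. "Deficient" below therefore means arrays labelled so.

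Markers of the tissue itself differed between the groups. The mean log2 level of 20 endothelial genes lay between 10.29 and 10.44 in deficient smoke and between 10.38 and 10.42 in deficient air, against 8.49 to 8.56 in wild type smoke and 9.37 to 9.53 in wild type air. The mean of 12 alveolar epithelial genes ran from 11.77 to 11.90 in deficient smoke and from 11.81 to 11.86 in deficient air, against 8.63 to 8.81 in wild type smoke and 10.85 to 11.07 in wild type air. Both means were lowest in wild type smoke, and alveolar genes of the host lung were well measured in every group. Within a group, the correlation between arrays over all genes was at least 0.990. Fewer cells of a type and less RNA per cell cannot be told apart in such tissue, and the part of tissue makeup in the results below was not tested beyond the endothelial mean given further on.

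RefSeq promoter windows of 250 bases (GRCm38.p6) were matched for 5 of the 8 genes, namely Tek, Tie1, Esm1, Apln and Dll4. The windows of Tie1, Esm1 and Dll4 ended at the gene start. That of Tek ran past its gene start at chr4:94739086, so most of it lay inside the gene as annotated. The 5 windows were searched on both strands for GGAAG, a core bound by ETS factors, for ACGTG and GCGTG, cores bound by hypoxia-inducible factors and by the aryl hydrocarbon receptor that senses smoke components, and for the NF-kB site. Of all 32851 windows of this length, 64.1% held GGAAG, 16.6% ACGTG, 28.2% GCGTG and 7.25% an NF-kB match. The 2 receptors are set side by side because Tie1 held 6 GGAAG matches, in capitals, and Tek held none in its window. Because the Tek window lay mostly inside the gene, the 2 windows cover unlike regions and no conclusion is drawn from these counts. The windows lie at chr4:94739039-94739288 on the plus strand for Tek and at chr4:118489850-118490099 on the minus strand for Tie1, each read 5′ to 3′ in the direction of the gene.
Tek: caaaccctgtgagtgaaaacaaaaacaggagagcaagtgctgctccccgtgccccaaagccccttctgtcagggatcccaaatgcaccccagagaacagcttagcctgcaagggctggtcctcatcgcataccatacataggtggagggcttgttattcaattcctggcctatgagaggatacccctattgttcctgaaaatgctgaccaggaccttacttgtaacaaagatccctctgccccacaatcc
Tie1: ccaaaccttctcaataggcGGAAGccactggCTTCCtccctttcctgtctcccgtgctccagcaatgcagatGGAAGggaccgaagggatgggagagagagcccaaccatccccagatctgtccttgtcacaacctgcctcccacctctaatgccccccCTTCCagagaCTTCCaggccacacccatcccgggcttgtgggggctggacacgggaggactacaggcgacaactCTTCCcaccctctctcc

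Esm1 and Dll4 are shown because, of the tip cell genes, Esm1 separated by exposure and Dll4 by genotype in the values below. The Esm1 window, chr13:113209409-113209658 on the plus strand, held 1 GCGTG in capitals, 47 bases before the start. The Dll4 window, chr2:119325534-119325783 on the plus strand, held 1 NF-kB match in capitals, 109 bases before the start, which overlapped neither its 2 GGAAG matches nor its 1 GCGTG match. The Apln window held 3 GGAAG matches, and none of the 5 windows held ACGTG.
Esm1: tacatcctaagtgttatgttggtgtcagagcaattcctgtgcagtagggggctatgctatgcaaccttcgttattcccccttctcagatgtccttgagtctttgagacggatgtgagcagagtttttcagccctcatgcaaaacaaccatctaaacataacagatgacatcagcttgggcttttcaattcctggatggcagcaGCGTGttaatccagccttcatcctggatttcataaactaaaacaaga
Dll4: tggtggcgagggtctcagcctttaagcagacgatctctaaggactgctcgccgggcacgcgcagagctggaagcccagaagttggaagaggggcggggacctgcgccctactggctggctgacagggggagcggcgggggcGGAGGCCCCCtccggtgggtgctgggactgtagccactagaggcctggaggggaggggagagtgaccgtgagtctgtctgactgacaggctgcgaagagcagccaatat
These matches describe the letters of the windows and were not tested as binding sites.

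With smoke, the genes moved in opposite directions in wild type hosts. The receptors Tek and Tie1 and the stabilising ligand Angpt1 fell, and Angpt2, Angptl4, Esm1 and Apln rose, so that 4 of 8 were higher and 3 lower, where 15.0% of all genes were higher and 14.0% lower (limma, Benjamini-Hochberg over all genes, limit 0.05). In deficient hosts, Esm1 and Angptl4 rose with smoke, 2 of 8, and 0 fell, against 0.692% of all genes higher and 1.72% lower. Deficient hosts in smoke exceeded wild type hosts in smoke for 5 genes (Tek, Tie1, Angpt1, Dll4 and Esm1) and were below them for 3 (Angpt2, Angptl4 and Apln), with 22.7% of all genes higher and 37.0% lower. In air, 5 genes (Tek, Tie1, Angpt1, Angpt2 and Dll4) were higher in deficient hosts and 0 lower, with 20.5% of all genes higher and 18.0% lower. The response to smoke itself, taken as that in deficient minus that in wild type hosts, differed for 7 genes, 4 with a more positive and 3 with a more negative response in deficient hosts, against 8.89% and 5.70% of all genes. These comparisons share arrays with each other.

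**Figure D1:**
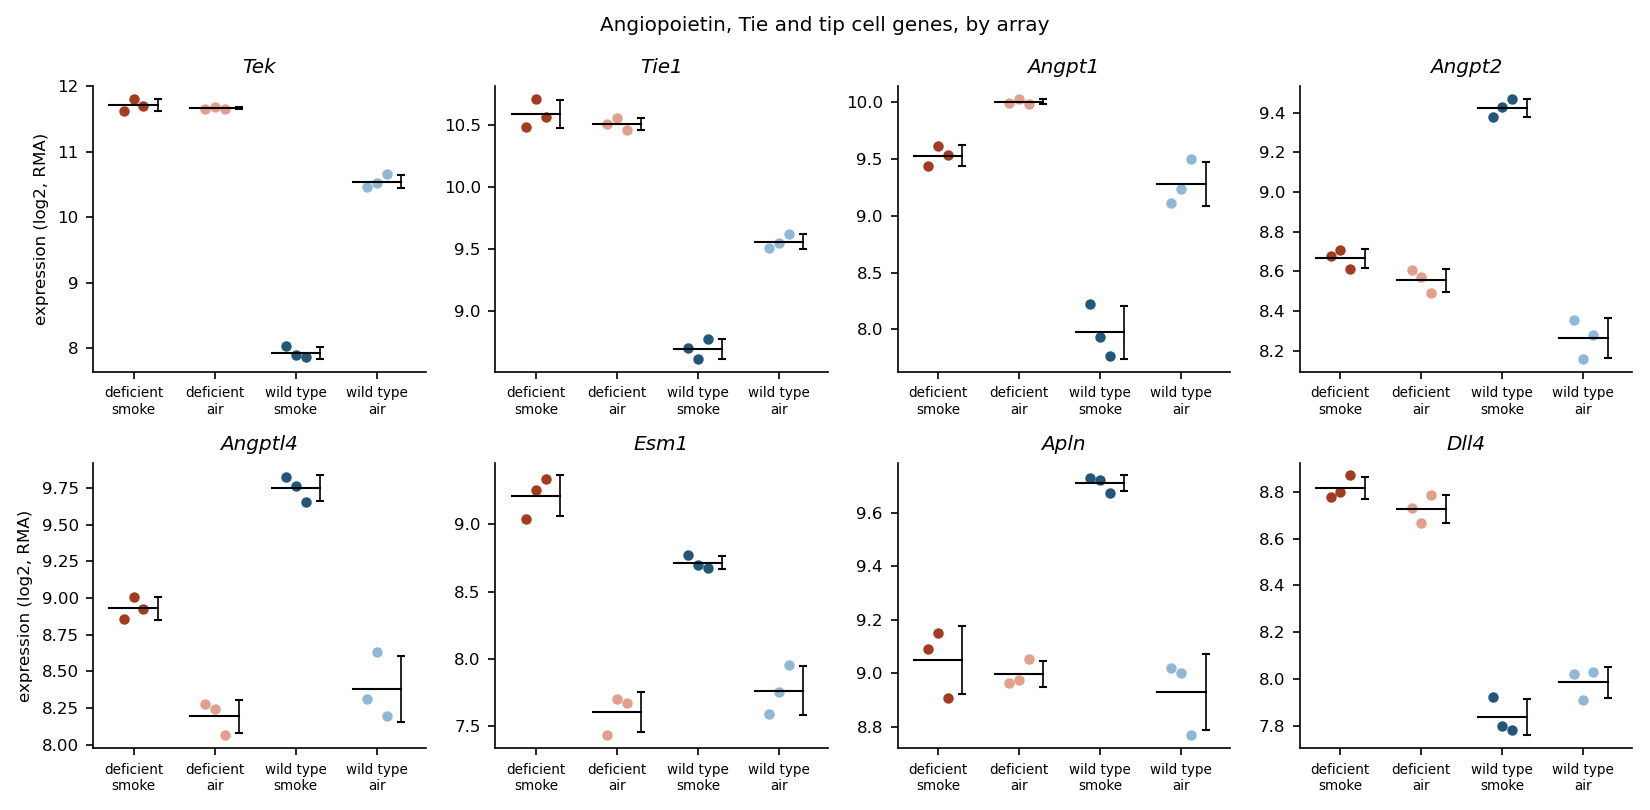
Log2 expression (RMA) of the 8 genes in each of the 12 arrays, with 1 point per array, a line at the group mean and a bar of ± SD beside it; each panel has its own axis, which does not start at 0. Wild type smoke is the lowest group for Tek, Tie1 and Angpt1 and the highest for Angpt2, Angptl4 and Apln.

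Tek moved the furthest of the 8. It measured 11.62, 11.81 and 11.70 in deficient smoke and 11.65, 11.68 and 11.66 in deficient air, against 8.03, 7.89 and 7.86 in wild type smoke and 10.46, 10.52 and 10.65 in wild type air. The deficient groups overlapped each other and lay above every wild type array, and wild type smoke lay far below the rest. Tek fell with smoke in wild type hosts by 2.62 ± 0.07 on the log2 scale (SE; 6.13-fold; adjusted p = 2.10e-11). In deficient hosts its difference with smoke was 0.05 (adjusted p = 0.978). Deficient hosts exceeded wild type hosts by 3.78 ± 0.07 in smoke (13.8-fold; adjusted p = 3.18e-13) and by 1.12 ± 0.07 in air (2.17-fold; adjusted p = 1.73e-07). The smoke response differed between deficient and wild type hosts by 2.66 ± 0.10 (adjusted p = 1.57e-09).

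Tie1, the partner receptor that modulates Tek signalling, took the same order with smaller steps. It measured 10.48, 10.71 and 10.56 in deficient smoke and 10.51, 10.55 and 10.46 in deficient air, against 8.70, 8.61 and 8.77 in wild type smoke and 9.51, 9.55 and 9.62 in wild type air. Again the deficient groups overlapped each other and no wild type array reached them. Tie1 fell with smoke in wild type hosts by 0.86 ± 0.07 (1.82-fold; adjusted p = 1.01e-06), and in deficient hosts the difference was 0.08 (adjusted p = 0.896). It was higher in deficient hosts by 1.89 ± 0.07 in smoke (3.70-fold; adjusted p = 1.06e-10) and by 0.95 ± 0.07 in air (1.93-fold; adjusted p = 4.62e-07). Its smoke response differed between deficient and wild type hosts by 0.94 ± 0.10 (adjusted p = 2.25e-05).

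Angpt1, the activating ligand of Tek, was highest in deficient air. Its values were 9.44, 9.62 and 9.53 in deficient smoke and 9.996, 10.03 and 9.99 in deficient air, against 8.22, 7.93 and 7.76 in wild type smoke and 9.11, 9.23 and 9.50 in wild type air. Deficient smoke overlapped wild type air, and wild type smoke lay below all other arrays. Angpt1 fell with smoke in wild type hosts by 1.31 ± 0.11 (2.48-fold; adjusted p = 1.55e-06). In deficient hosts the difference with smoke was -0.47 ± 0.11, without overlap between the groups, and narrowly missed the limit (adjusted p = 0.0509); it passed in 9 of 21 other settings, with adjusted p from 0.00118 to 0.214 over them. Deficient hosts exceeded wild type hosts by 1.56 ± 0.11 in smoke (2.94-fold; adjusted p = 9.08e-08) and by 0.72 ± 0.11 in air (1.65-fold; adjusted p = 2.03e-04). The smoke responses differed by 0.84 ± 0.16 (adjusted p = 0.00293).

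Angpt2, the destabilising ligand, ran the other way. It measured 8.68, 8.71 and 8.61 in deficient smoke and 8.61, 8.57 and 8.49 in deficient air, against 9.38, 9.43 and 9.47 in wild type smoke and 8.36, 8.16 and 8.28 in wild type air. Wild type smoke stood above all other arrays and wild type air below them, while the deficient groups lay between and next to each other. Angpt2 rose with smoke in wild type hosts by 1.16 ± 0.07 (2.23-fold; adjusted p = 2.23e-08), and in deficient hosts the difference was 0.11 ± 0.07 (adjusted p = 0.691). In smoke it was lower in deficient hosts, by -0.76 ± 0.07 (1.69-fold; adjusted p = 5.78e-07), and in air higher, by 0.29 ± 0.07 (1.22-fold; adjusted p = 0.00349). It was the gene of the 8 that differed between deficient and wild type hosts in opposite directions in smoke and in air with both differences past the test, and the smoke responses differed by -1.05 ± 0.10 (adjusted p = 3.86e-06).

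The change of Angpt2 relative to Angpt1 within an array puts both ligands into 1 value. Because the ligands were read by different probe sets, the difference has no meaning as a level and was read only as a change between groups. The log2 difference Angpt2 minus Angpt1 was -0.76, -0.91 and -0.92 in deficient smoke and -1.39, -1.46 and -1.5 in deficient air, against 1.15, 1.5 and 1.70 in wild type smoke and -0.75, -1.07 and -1.22 in wild type air. Wild type smoke stood apart from the other 9 arrays. It shifted towards Angpt2 with smoke by 2.47 in wild type hosts and by 0.58 in deficient hosts. In smoke it lay lower in deficient than in wild type hosts by -2.32 and in air by -0.43. Each of these 4 comparisons gave p = 0.1 in an exact two-sided permutation test. That is the smallest that 3 arrays against 3 allow, so none could pass 0.05. The measure was also added after its values were seen, so these p-values lend the shifts no support.

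**Figure D2:**
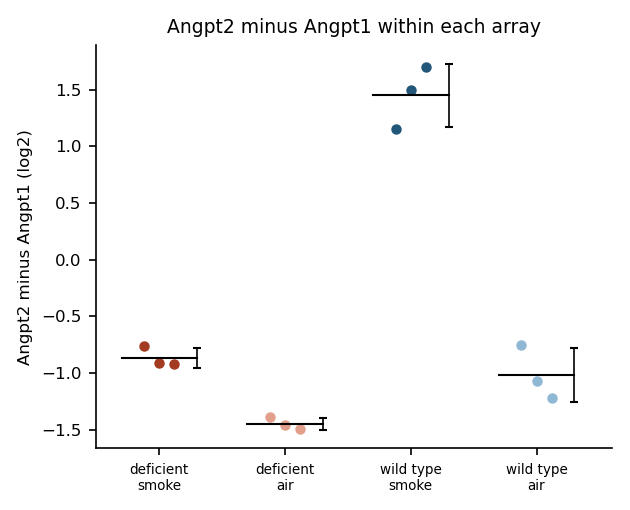
Angpt2 minus Angpt1 in log2 units within each of the 12 arrays, with a line at the group mean and a bar of ± SD. Wild type smoke lies at 1.45 ± 0.28, above deficient smoke at -0.86 ± 0.09, deficient air at -1.45 ± 0.05 and wild type air at -1.01 ± 0.24 (n = 3 each); the position of 0 has no meaning.

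Angptl4 rose with smoke in both hosts. It measured 8.86, 9.01 and 8.92 in deficient smoke and 8.28, 8.24 and 8.06 in deficient air, against 9.83, 9.76 and 9.65 in wild type smoke and 8.31, 8.63 and 8.20 in wild type air. Every smoke array lay above every air array, and the air groups overlapped. The rise was 0.74 ± 0.10 in deficient hosts (1.67-fold; adjusted p = 0.00137) and 1.37 ± 0.10 in wild type hosts (2.58-fold; adjusted p = 3.15e-07), and it was smaller in deficient hosts by -0.63 ± 0.15 (adjusted p = 0.00929). In smoke, deficient hosts were lower by -0.82 ± 0.10 (1.76-fold; adjusted p = 1.61e-05), and in air the difference was -0.19 (adjusted p = 0.188).

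Esm1, a proteoglycan of tip cells, rose with smoke in both hosts and, on this expression scale, more so in deficient ones. It measured 9.04, 9.26 and 9.33 in deficient smoke and 7.43, 7.70 and 7.68 in deficient air, against 8.77, 8.70 and 8.67 in wild type smoke and 7.59, 7.75 and 7.95 in wild type air. The 4 groups separated by exposure, deficient smoke lay above wild type smoke, and the air groups overlapped. Esm1 rose with smoke by 1.61 ± 0.11 in deficient hosts (3.04-fold; adjusted p = 2.04e-06) and by 0.95 ± 0.11 in wild type hosts (1.93-fold; adjusted p = 1.49e-05), and the responses differed by 0.66 ± 0.15 (adjusted p = 0.00828). In smoke it was higher in deficient hosts by 0.50 ± 0.11 (1.41-fold; adjusted p = 0.00132), and in air the difference was -0.16 (adjusted p = 0.276).

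Apln, the tip cell peptide, rose with smoke in wild type hosts, and its response differed from that in deficient hosts. Its values were 9.09, 9.15 and 8.91 in deficient smoke and 8.96, 8.98 and 9.06 in deficient air, against 9.73, 9.72 and 9.68 in wild type smoke and 9.02, 9.003 and 8.77 in wild type air. Wild type smoke stood above the other 9 arrays, which overlapped. The rise was 0.78 ± 0.08 in wild type hosts (1.72-fold; adjusted p = 9.34e-06) against a difference of 0.05 in deficient hosts (adjusted p = 0.976), and the responses differed by -0.73 ± 0.12 (adjusted p = 6.56e-04). Apln was lower in deficient hosts in smoke by -0.66 ± 0.08 (1.58-fold; adjusted p = 1.51e-05), and in air the difference was 0.07 (adjusted p = 0.591).

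Dll4, the Notch ligand of tip cells, separated by genotype, and neither smoke difference passed the test. It measured 8.78, 8.80 and 8.87 in deficient smoke and 8.73, 8.67 and 8.79 in deficient air, against 7.92, 7.80 and 7.78 in wild type smoke and 8.02, 7.91 and 8.03 in wild type air. All deficient arrays lay above all wild type arrays, and within each genotype the smoke and air arrays overlapped. Dll4 was higher in deficient hosts by 0.98 ± 0.07 in smoke (1.97-fold; adjusted p = 3.79e-08) and by 0.74 ± 0.07 in air (1.67-fold; adjusted p = 1.53e-06). Its difference with smoke was 0.09 in deficient hosts (adjusted p = 0.812) and -0.15 ± 0.07 in wild type hosts (adjusted p = 0.105). The wild type difference passed the test with array weights (adjusted p = 0.0135) and without wild type smoke replicate 1 (adjusted p = 0.0325).

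**Figure D3:**
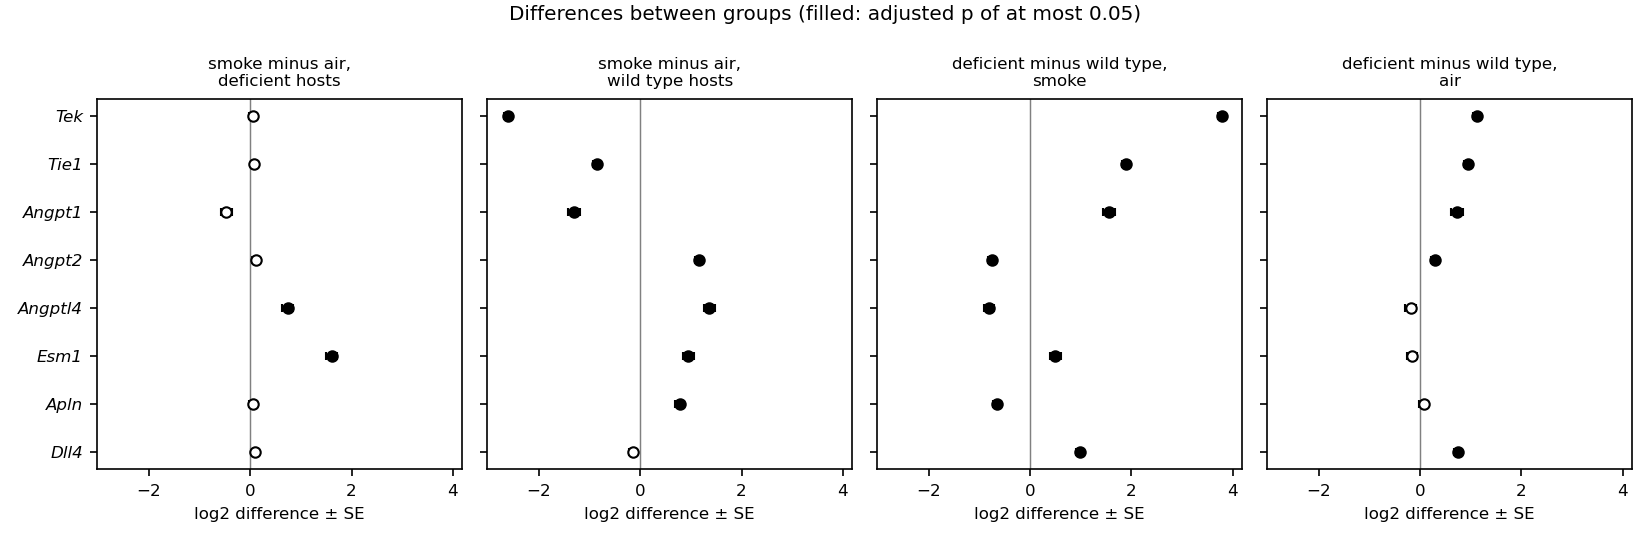
Log2 differences ± SE of the 8 genes in the 4 comparisons, smoke minus air in deficient and in wild type hosts and deficient minus wild type in smoke and in air; filled points had an adjusted p of at most 0.05. With smoke, Esm1 and Angptl4 are the filled points in deficient hosts, and Dll4 is the open point in wild type hosts.

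Endothelial genes as a whole moved with the receptors. Of the 20 on the list, 17 fell and 0 rose with smoke in wild type hosts (median -0.77, all genes 0.08), whereas 2 rose and 1 fell in deficient hosts (median -0.03). In deficient against wild type hosts, 19 were higher and 0 lower in smoke (median 1.88, all genes -0.14), and 19 were higher and 0 lower in air (median 0.97, all genes -0.03). Among them Kdr, the main VEGF receptor, fell with smoke in wild type hosts by 1.93 ± 0.08, the surface glycoprotein Clec14a by 2.27 ± 0.10 and the junction protein Cdh5 by 0.74 ± 0.08 (adjusted p = 7.77e-10, 1.27e-09 and 1.09e-05). Of 10 lung capillary genes, a list of its own, 9 fell in the same comparison (median -1.61), and Car4, a carbonic anhydrase of capillary endothelium, fell by 3.84 ± 0.11. Mural cell genes, the usual source of Angpt1, were lower for 6 of 11 and higher for 1 in that comparison (median -0.27), and their member Trpc6, a cation channel, fell by 1.69 ± 0.10 while the pericyte receptor Pdgfrb rose by 0.36 ± 0.06.

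To set the genes beside the endothelial content of the same array, the mean of the 20 endothelial genes was subtracted from every gene and the fit repeated. Because that mean itself differed between the groups, most genes shift on this scale, and the counts below are read against all genes. For smoke in wild type hosts, 5 of the 8 were higher and 2 lower, with 94.9% of all genes higher and 2.71% lower and a median over all genes of 0.99. Tek was among the few lower genes, by -1.70 ± 0.07 (adjusted p = 2.67e-10), and Angpt1 too, by -0.40 ± 0.10 (adjusted p = 0.00122). Tie1 differed from the endothelial mean by 0.05 ± 0.08 (adjusted p = 0.525). Dll4, at 0.76 ± 0.08, lay below the median of all genes, and Apln, Esm1, Angpt2 and Angptl4, at 1.69 to 2.28, lay above it.

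For deficient against wild type hosts in smoke, 1 gene was higher and 6 lower relative to the endothelial mean, with 2.35% of all genes higher and 96.1% lower and a median of -1.99. The higher one was Tek, by 1.93 ± 0.07 (adjusted p = 4.17e-12), and Tie1 differed by 0.04 ± 0.08 (adjusted p = 0.635). Dll4 (-0.87 ± 0.08), Esm1 (-1.35 ± 0.09) and Angpt1 (-0.29 ± 0.10), higher on the expression scale, were among the lower ones here, though above that median. Angpt2 (-2.61 ± 0.09), Angptl4 (-2.67 ± 0.12) and Apln (-2.51 ± 0.11) lay below that median. The Angpt1 call in this comparison was lost without wild type smoke replicate 1 (adjusted p = 0.0522). In air, 1 was higher and 6 lower, with 1.77% of all genes higher and 93.0% lower and a median of -0.99. Angpt2 (-0.67 ± 0.09), Angpt1 (-0.24 ± 0.10) and Dll4 (-0.22 ± 0.08), higher on the expression scale, were among the lower ones, though above that median. The calls of Angpt1 and Dll4 were each lost without some single arrays (adjusted p up to 0.111 and 0.0861). The Tek difference in air was 0.16 ± 0.07 (adjusted p = 0.0466), a call that was lost in turn without each of 9 of the 12 arrays, with adjusted p up to 0.108. For the difference in smoke response, 1 was higher and 4 lower, with 2.34% and 94.0% of all genes, and Tek again was the higher one, by 1.77 ± 0.10 (adjusted p = 1.63e-08). In deficient hosts, where the endothelial mean was 10.37 in smoke and 10.40 in air, 2 were higher (Esm1 by 1.63 ± 0.09 and Angptl4 by 0.76 ± 0.12) and 1 lower (Angpt1 by -0.45 ± 0.10, adjusted p = 0.0279), with 0.547% and 1.19% of all genes. The Angpt1 call was lost without any 1 of the 6 deficient arrays (adjusted p = 0.0876 to 0.130). These values depend on the list: with the 10 lung capillary genes as the mean, the wild type smoke difference was -0.56 ± 0.08 for Tek (adjusted p = 2.93e-06), 1.20 ± 0.08 for Tie1 and 0.75 ± 0.10 for Angpt1, and in smoke the deficient against wild type difference was 0.81 ± 0.08 for Tek and -1.08 ± 0.08 for Tie1. The difference in smoke response for Tek was then 0.71 ± 0.11. The change of list moves all genes of an array by the same amount, so a sign on this scale says only where a gene lay relative to that list's mean.

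Lists of other tissue components moved beside the genes as follows. Their counts are to be read against the shares of all genes given above for the same comparisons. All 12 alveolar epithelial genes fell with smoke in wild type hosts (median -2.03), and Ager, a receptor of type I cells, fell by 2.95 ± 0.07. All 12 were higher in deficient than in wild type hosts in smoke (median 3.06) and in air (median 0.85). Macrophage genes rose for 9 of 11 with smoke in wild type hosts (median 0.87), with the mannose receptor Mrc1 and the complement gene C1qc both up by 1.11 ± 0.10. Their array means lay between 9.61 and 9.74 in deficient smoke and 9.76 and 9.82 in deficient air, against 9.99 to 10.13 in wild type smoke and 9.23 to 9.35 in wild type air, which is the order of Angpt2 except that deficient air stood above deficient smoke. Hypoxia response genes rose for 12 of 17 and fell for 1 with smoke in wild type hosts (median 0.72), and 0 rose and 3 fell in deficient hosts (median -0.25). In smoke, 3 of them were higher and 13 lower in deficient than in wild type hosts (median -1.05). In air, 4 were higher and 10 lower (median -0.39), whereas Angpt2 was higher there and Angptl4, Esm1 and Apln did not pass the test. Adm, a vasodilator peptide induced by hypoxia, rose with smoke in wild type hosts by 1.25 ± 0.13 (adjusted p = 6.82e-06) and fell in deficient hosts by 0.56 ± 0.13 (adjusted p = 0.0376). The fall of Adm in deficient hosts was not called with the compared arrays alone (adjusted p = 0.0538), nor without deficient smoke replicate 2 or 3, deficient air replicate 1 or 2, wild type smoke replicate 2 or wild type air replicate 2 or 3 (adjusted p = 0.0501 to 0.177). The part of these tissue components in the changes of the 8 genes was not tested.

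**Figure D4:**
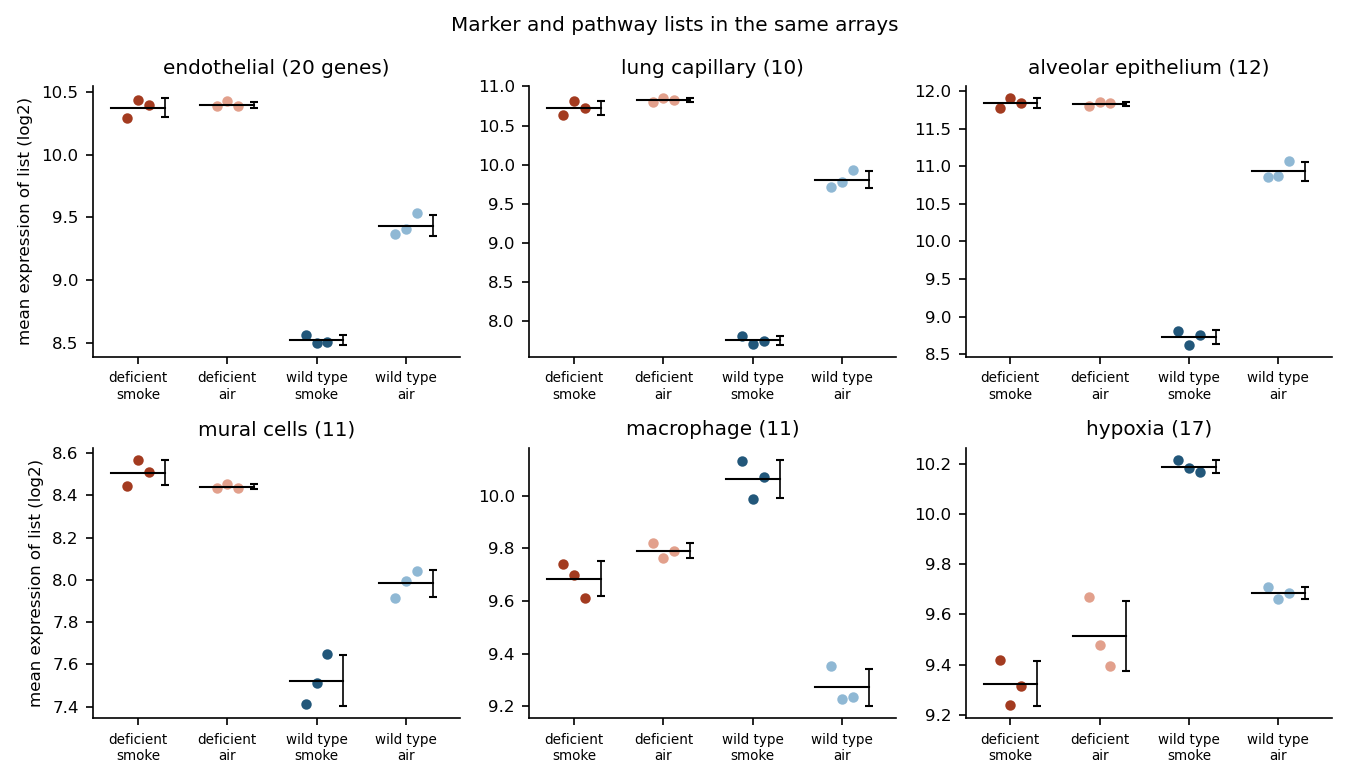
Mean log2 expression of 6 gene lists in each of the 12 arrays, with a line at the group mean and a bar of ± SD; each panel has its own axis, which does not start at 0. Endothelial, lung capillary, alveolar and mural means are lowest in wild type smoke, and macrophage and hypoxia means are highest there.

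Other genes listed with angiopoietin and Tie signalling, angiopoietin-like genes among them, split in direction. Of 13 measured, 2 rose and 6 fell with smoke in wild type hosts (median -0.06), against 15.0% and 14.0% of all genes. The share of the 13 that rose was near that of all genes. In deficient hosts 1 rose and 1 fell, against 0.692% and 1.72%. In deficient against wild type hosts, 5 were higher and 4 lower in smoke (median -0.06), and 5 higher and 3 lower in air (median 0.21). Of all genes, 22.7% were higher and 37.0% lower in smoke, and 20.5% and 18.0% in air. Ptprb, the phosphatase that switches Tek off and also a gene of the endothelial list, fell with smoke in wild type hosts by 1.77 ± 0.08 (adjusted p = 1.34e-09) and rose in deficient hosts by 0.38 ± 0.08 (adjusted p = 0.0196), a call lost without deficient smoke replicate 2 or 3 or any 1 deficient air array (adjusted p = 0.0798 to 0.0960). Thbd, the anticoagulant receptor thrombomodulin, fell in wild type hosts by 2.38 ± 0.08 and the matrix protein gene Svep1 by 1.67 ± 0.08. In air, Foxo1, a transcription factor that Tek signalling restrains, was higher in deficient hosts by 0.85 ± 0.07, and Klf2, a factor induced by blood flow, by 1.32 ± 0.10. The angiopoietin-like gene Angptl7 was lower there by -1.61 ± 0.11 (adjusted p = 2.71e-07).

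Notch genes, through which Dll4 acts, were listed together with other vessel genes such as Efnb2 and Ephb4. Most of this list was higher in deficient hosts. Of 16 measured, 13 were higher and 2 lower in smoke (median 0.78), against 22.7% and 37.0% of all genes. In air, 13 were higher and 2 lower (median 0.54), against 20.5% and 18.0%. The 20 endothelial genes had larger medians, 1.88 in smoke and 0.97 in air. The part of endothelial content in the values of this list was not tested. With smoke, 1 rose and 8 fell in wild type hosts (median -0.19), against 15.0% and 14.0% of all genes. In deficient hosts 1 rose and 0 fell, against 0.692% and 1.72%. In air, Lfng, which modifies Notch receptors, was higher in deficient hosts by 1.24 ± 0.09 (adjusted p = 3.01e-07), the endothelial receptor Notch4 by 0.90 ± 0.08 and the Notch target Hey1 by 1.00 ± 0.08. Rbpj, the DNA-binding partner of Notch, was lower there by -0.80 ± 0.07 (adjusted p = 1.86e-06). With smoke in wild type hosts, Hey1 fell by 0.98 ± 0.08, the arterial ligand Efnb2 by 0.83 ± 0.09 and its venous receptor Ephb4 by 0.88 ± 0.08. The receptor Notch1 rose with smoke in deficient hosts by 0.31 ± 0.07 (adjusted p = 0.0292) and fell in wild type hosts by 0.32 ± 0.07 (adjusted p = 0.00401). Its call in deficient hosts was lost without any 1 of the 6 deficient arrays (adjusted p = 0.0672 to 0.152).

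Other genes used to mark tip cells did not move as 1 group. Of 19 measured, 8 rose and 6 fell with smoke in wild type hosts (median 0.19), against 15.0% and 14.0% of all genes. In deficient hosts 1 rose and 1 fell, against 0.692% and 1.72%. In deficient against wild type hosts, 8 were higher and 8 lower in smoke (median 0.11), and 11 higher and 6 lower in air (median 0.37). Of all genes, 22.7% were higher and 37.0% lower in smoke, and 20.5% and 18.0% in air. The basement membrane gene Nid2 rose with smoke in wild type hosts by 0.77 ± 0.07 and the binding protein gene Igfbp3 by 0.73 ± 0.07. Vegfa, the growth factor that guides tip cells, fell in wild type hosts by 1.27 ± 0.07 (adjusted p = 1.15e-08), and was the 1 of the 17 hypoxia response genes that did. In air, the chemokine receptor Cxcr4 was higher in deficient hosts by 0.89 ± 0.06, and Nid1 was lower by -0.94 ± 0.07.

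The receptor of Apln and the enzyme that Angptl4 inhibits fell with smoke in wild type hosts, where their partners rose. The 20 endothelial genes had a median of -0.77 in that comparison, and the part of endothelial content in these falls was not tested. Aplnr, the receptor of Apln, fell with smoke in wild type hosts by 0.84 ± 0.09 (adjusted p = 1.31e-05), where Apln rose, and in deficient hosts it rose by 0.48 ± 0.09 (adjusted p = 0.0134). That rise of Aplnr was not called without deficient smoke replicate 2 or 3 or deficient air replicate 1 or 3 (adjusted p = 0.0537 to 0.0824). Lpl, the lipase that Angptl4 inhibits, fell with smoke in wild type hosts by 0.98 ± 0.08 (adjusted p = 5.65e-07) and was higher in deficient hosts by 2.34 ± 0.08 in smoke and by 1.52 ± 0.08 in air. Gpihbp1, which carries Lpl to the capillary lumen, was higher in deficient hosts by 1.05 ± 0.08 in smoke and by 1.09 ± 0.08 in air, and its difference with smoke in wild type hosts was -0.11 (adjusted p = 0.322). Of the 10 measured genes on the list of partners and regulators, 1 rose and 4 fell with smoke in wild type hosts. Of all genes, 15.0% rose and 14.0% fell there. In deficient hosts 1 of the 10 rose and 0 fell, against 0.692% and 1.72% of all genes. The hypoxia-inducible factor Epas1 fell in wild type hosts by 2.56 ± 0.11 and the nuclear receptor Pparg by 0.40 ± 0.07.

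Angptl4 is a target of the PPAR receptors, and 8 other such targets were measured. With smoke in wild type hosts 2 rose, 2 fell and 4 did not pass the test (median 0.05), where 15.0% of all genes rose and 14.0% fell. In deficient hosts 1 rose and 0 fell, against 0.692% and 1.72% of all genes. Cpt1a, which brings fatty acids into mitochondria, rose by 0.36 ± 0.07 in deficient hosts (adjusted p = 0.0176) and by 0.63 ± 0.07 in wild type hosts. In deficient hosts the Cpt1a call was lost without smoke replicate 2 or 3 or any 1 air array (adjusted p = 0.0656 to 0.0905). The lipid droplet gene Plin2 rose by 0.52 ± 0.07 in wild type hosts. The fatty acid transporter Cd36 fell in wild type hosts by 2.12 ± 0.08 and the kinase gene Pdk4 by 0.42 ± 0.09. The adipocyte list, a further tissue that makes Angptl4, had 7 measured genes. With smoke 2 of them fell in wild type hosts and 1 fell in deficient hosts, against 14.0% and 1.72% of all genes.

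The 8 genes were also compared with every other gene by the root mean square of the differences between their centred log2 values over the 12 arrays, a description without a test. Nearest to Tek were Sftpb (0.06 log2 units), a surfactant protein of alveolar type II cells, Timp3 (0.07) and Mamdc2 (0.07). Nearest to Tie1 were Erg (0.07), an endothelial transcription factor, Itga9 (0.07) and Lpin2 (0.08). Nearest to Angpt1 were Pank1 (0.09), Epb41l5 (0.13) and Glcci1 (0.14). Nearest to Angpt2 were C5ar1 (0.12), Cfp (0.12) and C1qc (0.13), all genes of the complement system. Angptl4 and Esm1 had no such close match: the nearest were Il1r2 (0.23), Col1a1 (0.24) and Mrc1 (0.25) for Angptl4, and Slc4a1 (0.38), Rps3a1 (0.41) and Saa3 (0.43) for Esm1. Among the 8 themselves, Angpt2 and Apln were the nearest pair (0.17), and Tek and Angptl4 the farthest (2.06).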

How the data were processed

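Total RNA of 12 tumour tissue samples was measured on Affymetrix mouse gene arrays. The log2 values were deposited by the authors, who made them with Affymetrix Expression Console and RMA, per the submitters' processing notes. Of 34760 probe sets, 21640 named 1 gene, and the probe set with the highest mean stood for its gene, which left 19937 genes. Probe sets with several genes (1321) or not listed (11799) were left out.

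Group means were fitted to all 12 arrays in limma 3.58.1 (R 4.3.3, residual df 8, prior df 4.83), with two-sided tests and Benjamini-Hochberg adjustment over all genes, limit 0.05. The fit was repeated after subtracting each array's mean of 20 endothelial genes. The fit was also run on simulated arrays with independent noise and a small set of genes shifted in wild type smoke alone. That setting is simpler than these data, where many genes differed in several comparisons, so it does not test the results given here. Promoter windows came from RefSeq (GRCm38.p6) and were searched in Python 3.11.15. The text names the 8 genes, Rela, up to 4 genes per list by smallest p in 2 comparisons, a fixed set of 12 and the 3 nearest genes of each member whose group means span at least 1 log2 unit. Members and lists were chosen with earlier results of these data known, and Angpt2 minus Angpt1 was added after its values were seen. The labels do not say that replicate numbers pair the samples, and the main fit used no pairing. Over 18 pairs of groups and numbers, same-numbered deviations correlated with r from -0.36 to 0.37, and 7 exceeded 0.1. Differently numbered arrays were not compared in this way, so these values do not settle whether a pairing exists. Precision is limited by having 3 arrays per group.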

Additional observations from a re-analysis of the deposited data

Results flagged for a closer look

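The response to smoke differed between deficient and wild type hosts for 7 of the 8 genes by the interaction term of the limma fit, over 12 arrays. Of all genes, 8.89% had a more positive and 5.70% a more negative response in deficient hosts by the same test. The response in deficient minus that in wild type hosts was positive for Tek (2.66), Tie1 (0.94), Angpt1 (0.84) and Esm1 (0.66), and negative for Angpt2 (-1.05), Apln (-0.73) and Angptl4 (-0.63), all on the log2 scale. For Tek, Tie1, Angpt2 and Apln the smoke response passed the test in wild type hosts and not in deficient hosts, where it lay between 0.05 and 0.11. Angpt1 also passed in wild type hosts and not in deficient hosts, where its difference of -0.47 narrowly missed the limit (adjusted p = 0.0509). For Angptl4 and Esm1 both responses passed and differed in size, in opposite senses. Endothelial and alveolar marker means showed the same kind of difference as Tek, and the part of alveolar genes in it was not tested. After subtracting the mean of the endothelial genes the Tek value was 1.77, and with the lung capillary genes in their place it was 0.71. For the other genes with a positive difference, the values against the endothelial mean were 0.05 ± 0.11 (Tie1), -0.05 ± 0.14 (Angpt1) and -0.23 ± 0.13 (Esm1). None of these passed the limma test (adjusted p = 0.636, 0.707 and 0.0946), though Esm1 did with array weights and without deficient air replicate 1. Angpt2 (-1.94), Apln (-1.62) and Angptl4 (-1.52) stayed negative on that scale, where the median of all genes was -0.97 and 94.0% were lower.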

How the results depend on the processing

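The genes and comparisons were recomputed with an intensity filter (15007 genes), probe sets averaged per gene, probe sets kept apart, an intensity trend, array weights, quantile normalization, median centring, the replicate number as a block, the compared arrays alone and each array left out. On the expression scale no call of the 8 genes was lost or reversed; 819 of 832 values kept their side of the threshold and 13 newly passed it, of Angpt1 with smoke in deficient hosts or of Dll4. The number of the 8 called ranged from 7 to 8 for smoke in wild type hosts, 2 to 3 for smoke in deficient hosts and 7 to 8 for the interaction, and stayed at 5 for genotype in air and 8 for genotype in smoke. With the replicate number as a block these counts were 7, 2, 7, 5 and 8, and no call of the 8 on the expression scale changed; relative to the endothelial mean, Angpt1 with smoke in deficient hosts then missed the limit (adjusted p = 0.0616). With lung capillary genes in place of the endothelial list, the interaction count was 8 against 5, and Angpt1 with smoke in wild type hosts was 0.75, Tie1 between genotypes in smoke -1.08 and Tie1 in the interaction -1.01. Subtracting another mean moves all genes of an array alike, by construction, and neither Tie1 value was called with the endothelial list (0.04 and 0.05), so the Tie1 signs say nothing about stability. Angpt1 was called with both lists, at -0.40 with the endothelial one, so its sign on this scale depended on the list. Against such a mean, 838 of 872 values kept their call and sign. Leaving out 1 array gave 4 to 7 called relative to the endothelial mean for genotype in air, with 4 without deficient air replicate 2. Rela and a wider set of list genes, some of which are not named in the text, were followed in the same way. Of their values, 4353 kept their call, 66 gained and 53 lost it, and 0 reversed. The shares of all genes called moved more: for smoke in wild type hosts 7600 were higher and 2252 lower with median centring (77.1% higher of those called, against 51.8%), 6250 and 3961 with array weights (61.2%), 1390 and 2064 with the compared arrays alone (40.2%), 5420 and 3404 without wild type smoke replicate 1, and 1444 and 2251 without wild type air replicate 3. For smoke in deficient hosts 476 and 892 were called with array weights and 305 and 713 with the compared arrays alone, and leaving out 1 array gave 63 to 211 higher and 194 to 506 lower. Median centring gave a higher share of 39.6% against 53.2% for genotype in air, 22.9% against 38.0% for genotype in smoke and 41.4% against 60.9% for the interaction, and array weights gave 44.2% for the interaction. Median centring also moved the median of all genes for genotype in smoke to -0.28, against -0.14. The cause of these shifts was not tested. All 8 genes lay above the intensity floor of log2 6.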
